A study of Mus musculus with 8 samples.

Results

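The response of mouse skeletal myogenic cells to expansion in culture was compared between cells of 2 origins, using all 8 RNA-seq libraries of the series. The measure was the interaction, that is the log2 change from fresh to expanded teratoma-derived cells minus the same change in satellite cells. TF cells were progenitors that embryonic stem cells (ESCs) had formed inside teratomas, sorted and not cultured, and TE cells were the same kind of progenitor at passage 8 in myogenic expansion medium on gelatin. SF cells were endogenous satellite cells, not cultured, and SE cells were satellite cells at passage 8. Each group had 2 biological replicates. In the study's methods the teratomas grew from EGFP-labelled E14 cells in irradiated and cardiotoxin-injured leg muscle of immunodeficient, dystrophin-deficient NSG-mdx4Cv mice, and progenitors were sorted as CD31- CD45- cells positive for α7-integrin and VCAM-1. All teratoma-derived libraries therefore stand for ESCs grown in a host muscle, and all satellite libraries for adult muscle. Of 24980 gene symbols in the table, 17582 were measured well enough to be tested and 2517 had an interaction call.

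Satellite cells are the stem cells of adult muscle. They rest outside the cell cycle under the basal lamina of the fibre and carry the transcription factor Pax7. When they are taken out of muscle and cultured they enter the cell cycle as myoblasts, express Myod1, and can go on to express Myog, leave the cycle, fuse and build sarcomeres. Progenitors from a teratoma come instead from a growing tissue in which muscle, cartilage, connective tissue and epithelium form side by side. Fresh cells of the 2 origins thus enter culture from different states, and an interaction can arise from a difference between the fresh cells, between the expanded cells, or both.

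The libraries held between 11930961 and 21146632 estimated counts, of which the ribosomal RNA precursor Rn45s took 7.99% to 21.3%. SF replicate 1 stood apart, with 22138 genes above 0 against 15412 to 17955 in the other libraries. The SE replicates differed most from each other, and the TE replicates least. The labelled lineage was present in every group: the summed level of 9 satellite and myogenic markers was 27700 to 79600 normalized counts per library (counts scaled to a common library size), although Chodl was at 0 in SE. Markers of several other cell types were higher in the fresh groups than in the expanded ones. The summed level of 12 endothelial markers was 2200 to 8920 in fresh and 100 to 189 in expanded libraries, and that of 10 fibro-adipogenic markers 8570 to 20300 and 114 to 579. The sums of some other lists did not follow, although many of their members fell. Of 9 tested pericyte and smooth muscle markers, 7 fell and 1 rose in each origin. Acta2 made up much of that sum, with a mean of 24200 in TE and 14400 in SE. The median log2 change of the Schwann and neural markers was -2.17 in teratoma-derived and -2.6 in satellite cells, and Stmn2 had a mean of 1180 in TE. The sum of 10 pericyte and smooth muscle markers was 22500 and 22800 in TF, 26900 and 27600 in TE, 18600 and 19400 in SF and 7680 and 26300 in SE, and that of 10 Schwann and neural markers was 1140 and 1200 in TF, 1710 and 2000 in TE, 1440 and 1890 in SF and 622 and 848 in SE. TF replicate 1 held more haematopoietic markers (12 genes) than any other library, 9630 against 50.9 to 982, and more epithelial markers (8 genes), 7370 against 13.3 to 2170. The 4 tested genes of chromosome Y (Ddx3y, Eif2s3y, Kdm5d and Uty, chosen after their values were seen) were at 33.66 to 996.3 in TF and at 0 to 32.41 in TE, and at 218.7 to 4870 in the satellite libraries, so the TE libraries stood apart from the other 6. In bulk RNA, fewer cells of a type and less RNA per cell cannot be told apart. P-values measure only the spread between the replicates sequenced here.

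Genes were called at an adjusted p below 0.05 and a log2 change above 0.32 in size, and all adjusted p are Benjamini-Hochberg values from edgeR's quasi-likelihood test. The interaction was called for 14.3% of the tested genes, 826 higher in teratoma-derived cells (4.7%) and 1691 lower (9.62%). Teratoma-derived cells had 1733 genes that rose (9.86%) and 2848 that fell (16.2%). Satellite cells had 3677 that rose (20.9%) and 3475 that fell (19.8%). The median log2 interaction over all tested genes was -0.18, and it was -0.04 with median-ratio size factors, which gave calls that were higher in 42.1% of cases against 32.8%. DESeq2 gave 1544 higher and 1975 lower calls. For 1610 of the 2517 genes (64%) the 2 fresh groups differed and the 2 expanded groups did not. For 443 (17.6%) the expanded groups differed and the fresh did not.

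Each interaction call was then sorted by what the gene did in each origin, where the 2 origins' own contrasts share no libraries. In 55 genes (0.313% of those tested) expansion raised the level in teratoma-derived cells and lowered it in satellite cells, and in 152 (0.865%) the reverse held. In teratoma-derived cells only, 145 genes rose (0.825%) and 337 fell (1.92%). In satellite cells only, 841 rose (4.78%) and 423 fell (2.41%). "Only" here means that the other origin had no call, and with the stricter demand that the other origin's estimate lie below 0.32 on the log2 scale, 73, 98, 358 and 181 genes were left. A further 524 genes moved the same way by different amounts, and 40 had no call in either origin alone. Leaving out TE replicate 1 lowered the counts of the 2 opposite groups to 14 and 80, and leaving out TE replicate 2 to 16 and 85.

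**Figure D1:**
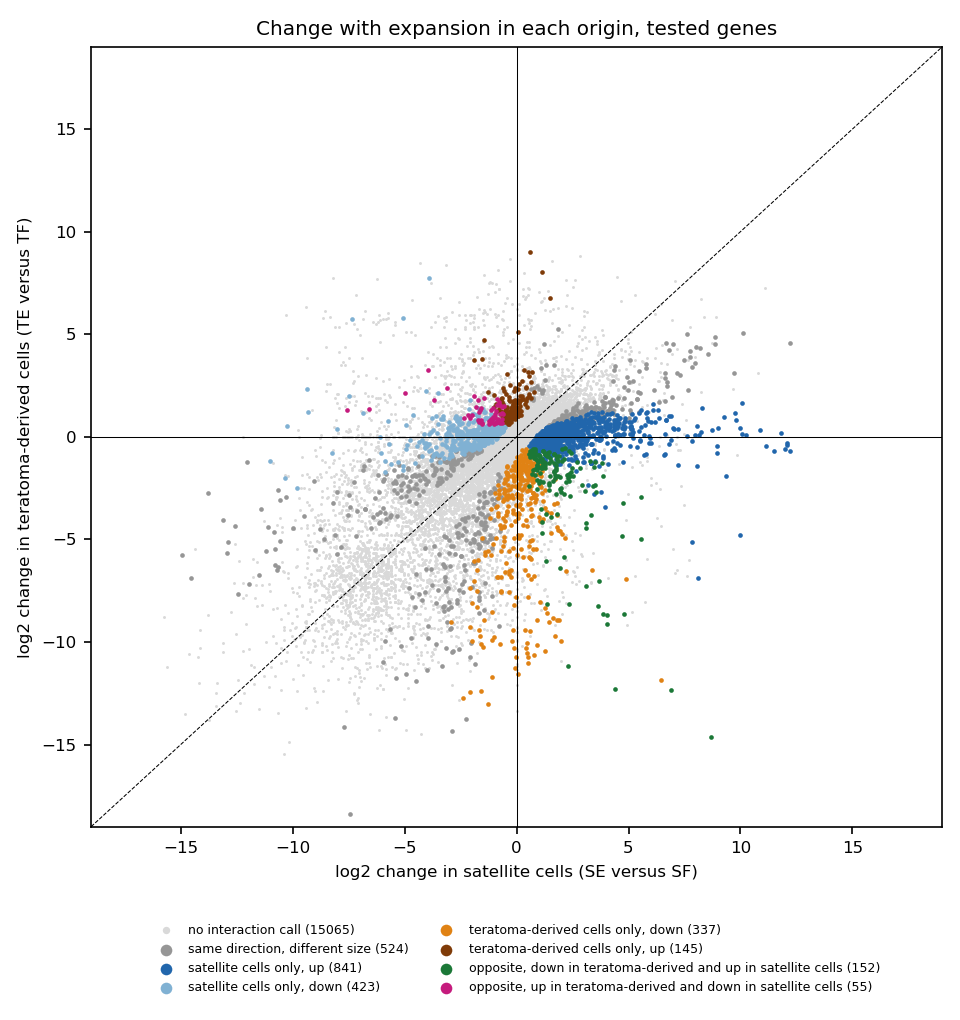
Log2 change with expansion in satellite cells (horizontal axis) and in teratoma-derived cells (vertical axis), 1 point per tested gene, coloured by group of interaction call with the number of genes in the legend. The 55 magenta points lie at the upper left and the 152 green points at the lower right, and the 841 dark blue points stretch to the right along the horizontal line at 0. Changes of genes near 0 counts in a group depend on the fit and are not exact.

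The 55 genes that rose in teratoma-derived cells and fell in satellite cells included Avil, Vgll2 and Ptx3. Avil codes for advillin, an actin-binding protein. Its level was 72.71 and 43.43 normalized counts in TF, 502.3 and 618.2 in TE, 166.4 and 117.5 in SF and 2.265 and 16.48 in SE, so the fresh groups lay between the high TE and the low SE libraries. The interaction was 7.21 on the log2 scale (SE 0.978, adjusted p = 0.0017). Vgll2, a cofactor of TEAD transcription factors in muscle, stood at 117.1 and 244 in TF and 781.7 and 790.2 in TE, against 1566 and 2534 in SF and 68.69 and 61.33 in SE, an interaction of 7.09 (SE 0.53, adjusted p = 9.19e-05). Expansion thus brought the TE libraries above both TF libraries and the SE libraries below every other library. Ptx3, a secreted pattern recognition protein, went from 476.7 and 328.3 to 901.2 and 1151 in teratoma-derived cells and from 720.3 and 1322 to 13.59 and 7.323 in satellite cells.

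Other genes of the same group had smaller changes. Mir17hg, the host transcript of the miR-17 to miR-92 cluster, rose by 2.01 in teratoma-derived cells and fell by 1.9 in satellite cells. Baz1a, a subunit of chromatin remodelling complexes, rose by 1.41 and fell by 1.6, and its level in the TE libraries (2869 and 2628) stayed below that in SF (4602 and 5893). Dpysl5, a protein of growing neurites, and the long noncoding RNA Snhg17 had interactions of 5.48 and 3.27. Trp53rkb, the pseudogene Morf4l1-ps1 and the protocadherin Pcdhga8 share sequence with near-identical copies, so their estimated counts are uncertain. The interaction of Pcdhga8 (3.36) lost its call without TE replicate 2 (adjusted p = 0.0969).

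Among the 55 were 11 genes that code for proteins of ribosome assembly in the nucleolus, so all 53 genes of a list of such factors were counted. The list was written after these values were seen and carries no weight as a test. All 53 were measured, and 25 had an interaction call, each of them higher in teratoma-derived cells, beside 14.3% of all tested genes. In teratoma-derived cells 43 rose and none fell, and in satellite cells 5 rose and 14 fell. Median log2 changes were 1.01 in teratoma-derived and -0.11 in satellite cells, beside -0.18 and -0.23 over all tested genes. Nop14, needed for the small ribosomal subunit, went from 1019 and 860.9 in TF to 3212 and 3445 in TE, and from 2537 and 3489 in SF to 1478 and 1780 in SE (interaction 2.71, SE 0.303, adjusted p = 0.000668). Nop56, a core protein of the particles that methylate ribosomal RNA, went from 1157 and 1498 to 3851 and 3737 and from 3229 and 4215 to 2659 and 2332. In both genes the TF libraries were the lowest of the 8. The interaction of Rrs1 was 2.3 and that of the nucleolar helicase Ddx21 was 1.68. Without TE replicate 1 the number of called genes of this list was 15, and without TE replicate 2 it was 16.

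Of the 152 genes that fell in teratoma-derived cells and rose in satellite cells, those with a group at or below 3 counts in both libraries, such as H19, were set aside for naming, since their fitted changes are not exact. Among the others whose mean level reached 50, Igfbp2 and the imprinted gene Mest ranked first by the smaller of their changes in the 2 origins. Igfbp2, a secreted binding protein of insulin-like growth factors, stood at 2465 and 2764 in TF and 69.45 and 95.56 in TE, and at 5.818 and 5.388 in SF and 285.3 and 252.7 in SE. The interaction was -10.54 (SE 0.412, adjusted p = 6.67e-06), and the order of the groups (SF, TE, SE, TF) held without overlap. Mest, expressed from the paternal allele and abundant in embryonic mesoderm, went from 1632 and 1784 to 33.11 and 85.59 in teratoma-derived cells, and from 462 and 780.2 to 19390 and 13470 in satellite cells (interaction -9.57, SE 0.624, adjusted p = 4.81e-05). Car3, the carbonic anhydrase abundant in muscle, went from 544 and 410 to 58.95 and 63.98, and from 48.87 and 48.49 to 1916 and 2670 (interaction -8.51, SE 0.397, adjusted p = 1.78e-05). For Mest and Car3 the SE libraries were the highest of all 8, whereas for Igfbp2 the TF libraries were.

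Further genes of this group differed more between replicates. Car8 reached 1942 in SE replicate 1 and 313.1 in SE replicate 2, and the water channel Aqp5 reached 635.6 and 92.46. Laptm5, a lysosomal protein of blood cells, was at 960.1 in TF replicate 1 and 97.07 in TF replicate 2, which moved with the haematopoietic markers given above, and their part in this result was not tested. Its interaction of -7.3 lost the call without TF replicate 1 (adjusted p = 0.0522). Gpr37, the leucine-rich repeat protein Lrrn2, the prostacyclin synthase Ptgis and Tmem158 had interactions of -7.56, -6.25, -5.71 and -5.84, and in each the TF and SE libraries lay above the TE and SF libraries. The pathway lists placed in this group Lamb1, a laminin chain (-4.37), Sema3a, a guidance ligand (-5.07), and Id2, an inhibitor of bHLH factors (-5.08).

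Among the 152, 11 genes code for enzymes and chaperones of the endoplasmic reticulum (ER), where secreted proteins fold and collagen is hydroxylated. A list of 40 such genes was therefore counted as well, again written after the values were seen. Of these, 26 had an interaction call (65%, beside 14.3% of all tested genes), and all 26 were lower in teratoma-derived cells. In teratoma-derived cells 20 fell and 1 rose, and in satellite cells 25 rose and 4 fell. The median log2 change was -0.79 in the first and 0.84 in the second. Pdia4, a protein disulfide isomerase, went from 9922 and 13870 in TF to 5364 and 5847 in TE, and from 1321 and 1592 in SF to 5810 and 4305 in SE (interaction -2.88, SE 0.335, adjusted p = 0.000807). Fkbp10, a collagen chaperone, went from 2525 and 2977 to 1335 and 1069 and from 444.5 and 545.3 to 1984 and 1618. For both genes the expanded libraries of the 2 origins lay near each other and between the fresh groups. P3h1, a collagen prolyl hydroxylase, and P4hb had interactions of -2.18 and -1.56. The count of 26 was 15 without TE replicate 1 and 17 without TE replicate 2. The fibro-adipogenic marker sum fell in both origins (TF 17800 and 20300, SF 8570 and 14600, at most 136 in TE and 579 in SE). Its part in the ER result was not tested.

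**Figure D2:**
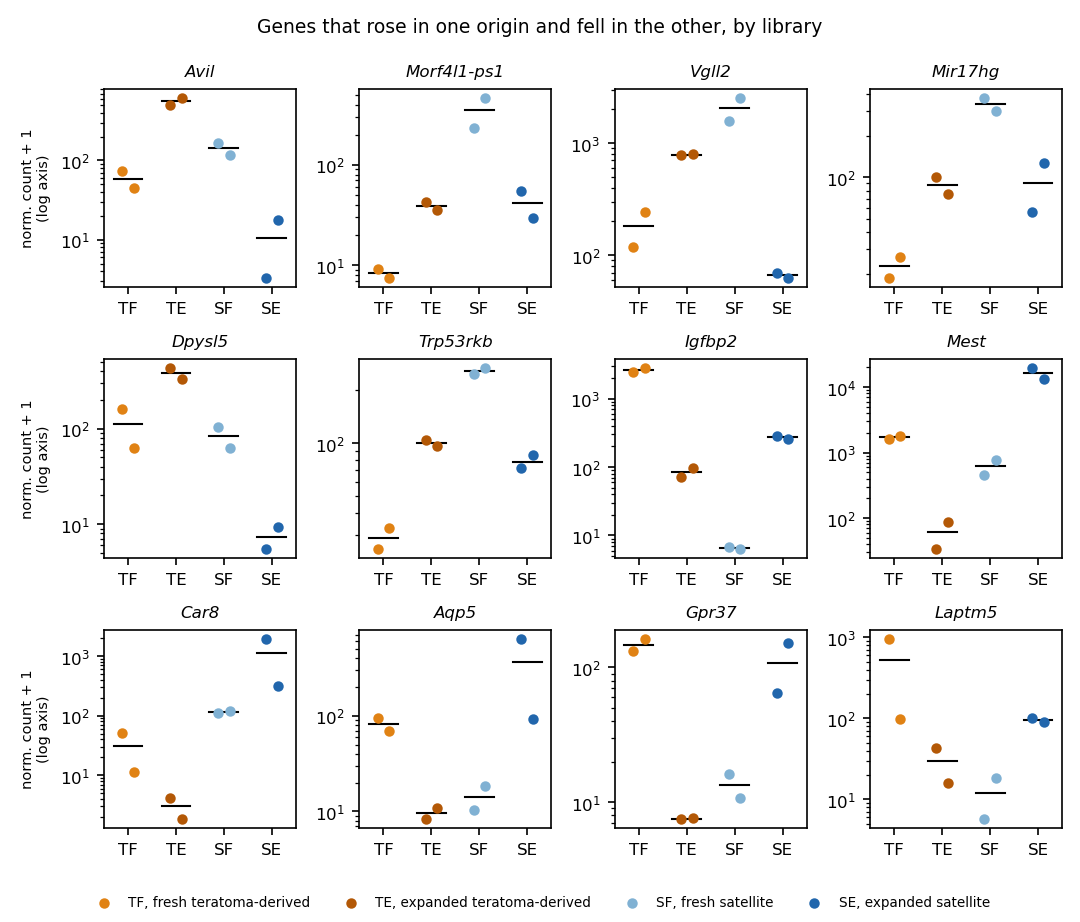
Normalized counts plus 1 (log axis) in the 2 libraries of each group for the first 6 named genes of each opposite group, with the group mean as a black bar. Avil through Trp53rkb are higher in TE than TF and lower in SE than SF, and Igfbp2 through Laptm5 show the reverse.

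The promoters of the first 2 genes of each opposite group that RefSeq lists are shown because these genes carry the reversal. Each is 250 bases before to 50 after the start (GRCm38.p6), 5′ to 3′ on the gene's strand, and capitals mark CAGCTG (an E-box that myogenic factors bind), the CCAAT box, the cell cycle homology region TTTGAA and the interferon element GAAANNGAA, each searched on both strands. Avil is on the plus strand at chr10:127000459-127000758, Vgll2 on the plus strand at chr10:52022252-52022551, Igfbp2 on the plus strand at chr1:72824230-72824529 (the first of 2 listed starts) and Mest on the plus strand at chr6:30733256-30733555 (the first of 3).
Avil: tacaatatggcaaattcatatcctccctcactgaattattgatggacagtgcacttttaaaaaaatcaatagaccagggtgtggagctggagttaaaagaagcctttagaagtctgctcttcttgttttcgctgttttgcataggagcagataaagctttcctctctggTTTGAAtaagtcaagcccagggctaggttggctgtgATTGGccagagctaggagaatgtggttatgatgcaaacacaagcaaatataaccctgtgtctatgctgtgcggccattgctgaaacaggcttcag
Vgll2: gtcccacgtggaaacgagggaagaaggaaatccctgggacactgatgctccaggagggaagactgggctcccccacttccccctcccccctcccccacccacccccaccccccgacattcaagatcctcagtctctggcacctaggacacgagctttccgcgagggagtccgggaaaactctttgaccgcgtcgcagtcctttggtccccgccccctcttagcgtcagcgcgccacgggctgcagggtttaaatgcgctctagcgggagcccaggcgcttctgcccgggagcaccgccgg
Igfbp2: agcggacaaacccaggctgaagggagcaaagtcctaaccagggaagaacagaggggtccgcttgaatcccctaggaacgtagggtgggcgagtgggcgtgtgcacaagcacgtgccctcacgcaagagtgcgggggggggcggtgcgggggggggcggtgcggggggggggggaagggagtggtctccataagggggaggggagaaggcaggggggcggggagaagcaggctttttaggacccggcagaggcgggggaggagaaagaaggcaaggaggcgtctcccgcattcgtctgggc
Mest: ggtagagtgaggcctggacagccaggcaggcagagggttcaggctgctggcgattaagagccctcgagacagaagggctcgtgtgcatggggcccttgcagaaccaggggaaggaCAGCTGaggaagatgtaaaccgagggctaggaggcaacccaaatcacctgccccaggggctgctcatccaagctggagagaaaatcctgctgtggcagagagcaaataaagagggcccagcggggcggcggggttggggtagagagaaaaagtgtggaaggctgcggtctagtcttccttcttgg
Avil held TTTGAA at -81 and CCAAT (on the other strand) at -45 from the start, Mest held CAGCTG at -135, and the other two held none of the 4 motifs. Of 27025 promoters of this length, 16.1% held CAGCTG, 37.9% CCAAT, 18.1% TTTGAA and 8.57% GAAANNGAA. A match describes letters and not a bound site.

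Genes that rose in teratoma-derived cells without a call in satellite cells included Col19a1, a collagen of the muscle basement membrane zone. It went from 41.74 and 29.38 in TF to 1162 and 1304 in TE, while SF (1970 and 2451) and SE (2647 and 1973) overlapped (interaction 5.05, SE 0.355, adjusted p = 7.09e-05). The expanded teratoma-derived cells thus came closer to the satellite libraries but stayed below them. Slc7a1, a transporter of cationic amino acids, went from 688.1 and 858.3 to 4793 and 4456 in teratoma-derived cells, with 1289 to 1793 in the satellite libraries. Vgll3, another TEAD cofactor, went from 631.5 and 914.5 to 3694 and 3565 and Fam107a, a stress-responsive actin-binding protein, from 86.18 and 141.8 to 750.2 and 772.8. The interaction of Gpat3 (2.8) lost the call in 4 of 13 alternative analyses.

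Of the 145 genes of this group, 8 belonged to the amino acid stress and serine synthesis list, genes that the transcription factor Atf4 is known to drive when amino acids run short. Of 24 genes tested, 12 had an interaction call (50%), 11 of them higher in teratoma-derived cells. In teratoma-derived cells 22 of the 24 rose. The median log2 change was 2.46 in teratoma-derived and 1.23 in satellite cells, and that of the interaction was 1.27 beside -0.18 over all tested genes. Atf4 itself went from 5642 and 5239 to 11580 and 12020 in teratoma-derived cells and from 7210 and 10030 to 3734 and 5015 in satellite cells (interaction 2.1, SE 0.32, adjusted p = 0.00295). Ddit3, a stress-induced partner of such factors, also moved in opposite directions, by 1.7 and -0.8. Chac1, which degrades glutathione, went from 55.21 and 74.08 to 1349 and 1620 in teratoma-derived cells and from 70.98 and 115.3 to 156.3 and 284.7 in satellite cells. The exception was asparagine synthetase (Asns), which rose in both origins. It went from 487.4 and 471.3 to 6572 and 6339 and from 39.56 and 39.87 to 1042 and 1633, so that its interaction was -1.32. This call was lost without TF replicate 2, either TE replicate or either SF replicate. Slc7a5, Slc3a2, Sesn2, Cars, Atf5, Aars, Vldlr and Slc7a1 rose in teratoma-derived cells only. The number of higher calls lay between 10 and 13 in the alternatives.

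Genes that fell in teratoma-derived cells only included Nrep, a protein of regenerating nerve, which went from 2198 and 2497 in TF to 1.615 and 4.986 in TE and was at 427.5 to 662 in the satellite libraries (interaction -9.26, SE 0.511, adjusted p = 2.45e-05). Ptn, the secreted growth factor pleiotrophin, went from 6237 and 7000 to 62.18 and 83.93, and the satellite libraries were low throughout (49.07 to 111.7). Nrep and Ptn therefore ended on different sides: TE lay below SE for the first and overlapped SE for the second. Gpr153, an orphan receptor, went from 2091 and 1991 to 62.99 and 27.42 (interaction -5.67), and Cdyl2, a chromodomain protein, from 96.95 and 200.5 to 0 and 4.986 (-6.14). Armh4 had an interaction of -6.6. That of Ndufa4l2 (-5.76) lost its call in 9 of 13 alternative analyses.

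Hox genes record position along the body axis. In teratoma-derived cells 15 of the 34 tested fell and none rose, and in satellite cells 3 fell and 2 rose. An interaction call was made for 9 (26.5%, beside 14.3% of all tested genes), all lower, 7 of them in teratoma-derived cells only and 2 in opposite directions. The median log2 change was -6.36 in teratoma-derived and -0.54 in satellite cells, but 24 of the 34 genes had a group at or below 3 counts in both libraries, where fitted changes are not exact. Hoxa10 was at 91.56 and 26.82 in TF, 0 and 9.141 in TE, 100.1 and 148.7 in SF and 385 and 258.1 in SE. Its interaction (-5.04) lost the call in 4 of 13 alternative analyses. Hoxa9 was at 24.24 and 12.77 in TF and 0 in both TE libraries, and went from 40.73 and 22.63 in SF to 282.3 and 260.9 in SE. The TE libraries were the lowest for both genes. Hoxa11 was also at 0 in both TE libraries. Leaving out SF replicate 2 lowered the 9 calls to 4.

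**Figure D3:**
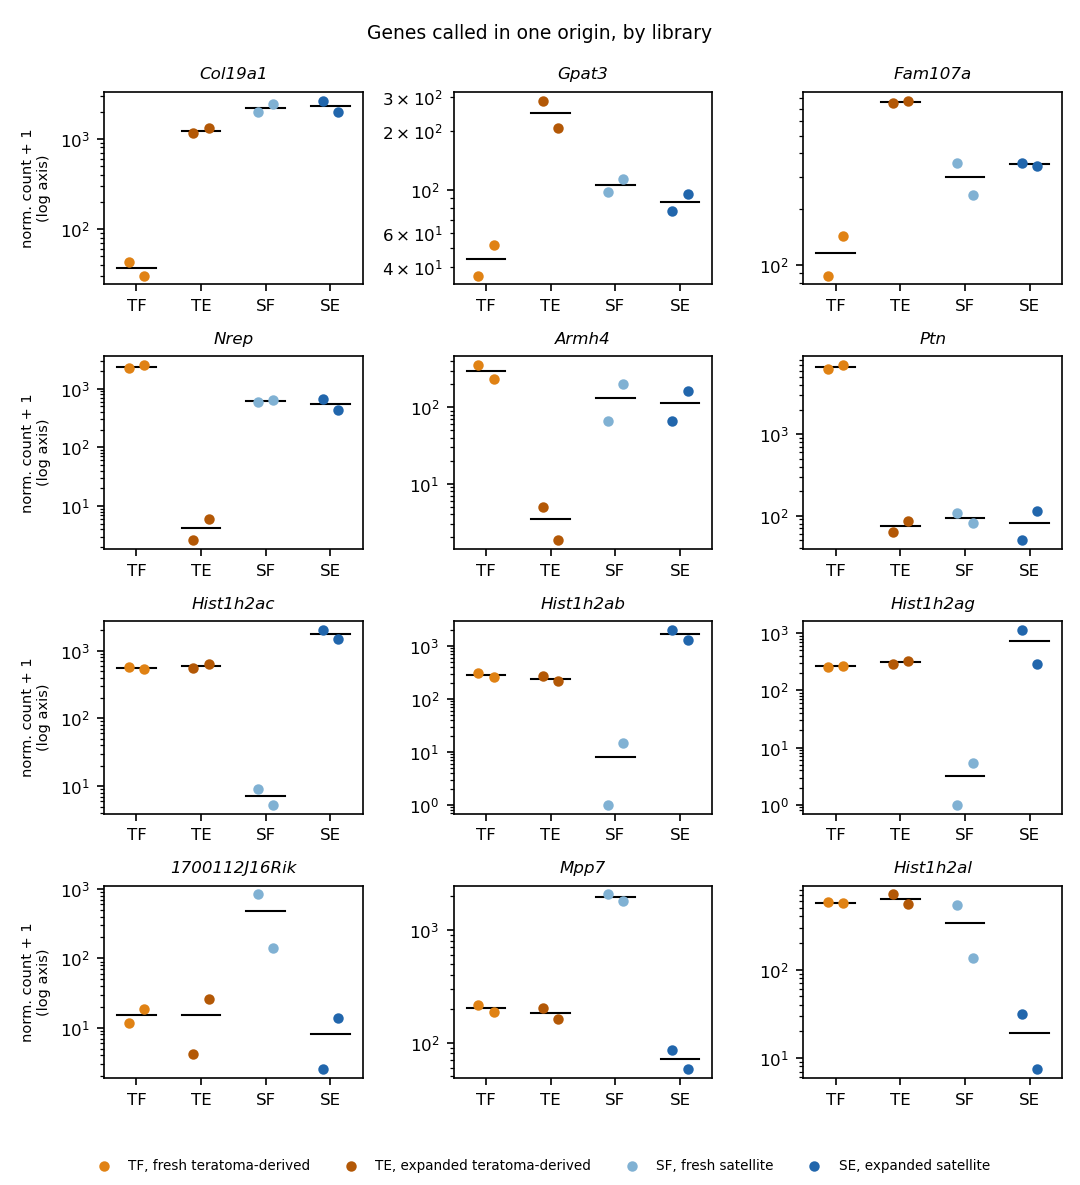
Normalized counts plus 1 (log axis) in the 2 libraries of each group for the first 3 named genes called in teratoma-derived cells only (up, then down) and in satellite cells only (up, then down), with the group mean as a black bar. In the upper 2 rows TF and TE are apart while SF and SE overlap or lie close, and in the lower 2 rows SF and SE are apart while TF and TE lie close.

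The genes that rose in satellite cells only were the largest of these groups, with 33.4% of the 2517 interaction calls. Of its 6 named genes, the first were replication histones, which package newly made DNA. Hist1h2ac was at 579 and 537.7 in TF, 546.7 and 624.9 in TE, 8.146 and 4.31 in SF and 2019 and 1499 in SE (interaction -8.06, SE 0.433, adjusted p = 2.45e-05). The SF libraries were far below the other 6. All 63 tested histone genes of the 4 clusters were counted, a grouping made after the values were seen. Of these, 53 had a lower interaction call and 1 (Hist1h2al) a higher one, and 50 rose in satellite cells only. The share called was 85.7%, beside 14.3% of all tested genes. The median log2 change was 0.08 in teratoma-derived and 5.17 in satellite cells. The mean level of the list, as log2 of the normalized count plus 1, was 8.29 to 8.47 in the TF and TE libraries, 3.63 and 4.03 in SF and 8.65 and 9.36 in SE. Histone genes are near-identical copies, so the split of reads between them is uncertain, and in 12 of them SF was the group at or below 3 counts.

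Mitosis genes drive the division of the chromosomes. Of 30 tested, 25 had an interaction call (83.3%, beside 14.3% of all tested genes), all lower, and 24 rose in satellite cells only. Expansion changed the list by a median of 0.57 on the log2 scale in teratoma-derived and 4.47 in satellite cells. Mki67, the proliferation antigen, was at 6003 and 6568 in TF, 7472 and 6173 in TE, 209.5 and 223.1 in SF and 11090 and 4456 in SE (interaction -5.05, SE 0.523, adjusted p = 0.000481). Ndc80, a kinetochore protein, was at 293.5 and 302.7 in TF, 419.9 and 550.9 in TE, 12.8 and 2.155 in SF and 615.2 and 338.7 in SE (interaction -5.29, SE 0.772, adjusted p = 0.00234). For both genes the SE libraries lay on either side of the TE libraries, and SF lay below all others. Kif20a, a motor of cell division, had an interaction of -5.19. The count of lower calls was 21 to 27 in the alternatives.

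DNA replication genes had 11 interaction calls among 30 tested (36.7%, beside 14.3% of all tested genes), and all 11 rose in satellite cells only. Median log2 changes of the list were 0.09 in teratoma-derived and 2 in satellite cells. Gins2, of the replicative helicase, was at 134.7 to 155.9 in the teratoma-derived libraries, 5.818 and 0 in SF and 187.2 and 114.4 in SE (interaction -5.58). Mcm2, Mcm3, Mcm6, Mcm7 and Mcm10 were among the 11. The count was 7 without TE replicate 1 and 18 without SE replicate 2. Of 7 CDK inhibitors, 2 had an interaction call (28.6%). Cdkn2b, which codes for p15, was at 22.11 and 5.388 in SF against 1257 and 742.4 in SE and 158.4 to 352.3 in the teratoma-derived libraries (interaction -5.46), and Cdkn2a, which codes for p16 and p19, rose in both origins with an interaction of -4.45.

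The promoter of Ndc80 is shown as the first named gene of the mitosis list, at chr17:71526808-71527107 on the minus strand, with capitals as above.
Ndc80: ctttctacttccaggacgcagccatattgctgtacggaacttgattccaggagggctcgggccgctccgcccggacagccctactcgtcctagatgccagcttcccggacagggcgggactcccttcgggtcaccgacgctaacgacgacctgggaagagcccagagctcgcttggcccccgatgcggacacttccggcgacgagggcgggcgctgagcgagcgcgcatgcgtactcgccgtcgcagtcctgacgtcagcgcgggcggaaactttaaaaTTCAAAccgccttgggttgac
Its TTTGAA, on the other strand, lies at 30 bases after the start. Of the 25 mitosis genes with a listed promoter, 76% held CCAAT and 68% TTTGAA, beside 37.9% and 18.1% of all promoters. For the 23 DNA replication genes with one, the shares were 73.9% and 8.7%. These are descriptions of letters and no test was made.

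Oxidative phosphorylation genes, which build the respiratory chain, had 27 interaction calls among 57 tested (47.4%), all lower, and 19 of them rose in satellite cells only. Their median log2 change was 0.7 in teratoma-derived and 1.77 in satellite cells. Sdhc, a subunit of complex II, went from 270 and 192.9 in SF to 1212 and 1262 in SE and from 723.1 and 647.6 in TF to 847.9 and 1096 in TE (interaction -1.91, SE 0.334, adjusted p = 0.0054). Ndufb5, of complex I, had an interaction of -2.32. Mean levels of the list were alike in TE (10.02 and 10.06) and SE (9.98 and 10.23) and lowest in SF (8.09 and 8.32). The count of 27 depended on the libraries used. It fell most when any TF or TE library was left out, and rose without SF replicate 2. The median log2 interaction of the list lay between -1.25 and -0.85 in the alternatives. Glycolysis and hypoxia genes had 21 calls among 35 (60%, beside 14.3% of all tested genes), 19 lower and 2 higher. Of the 21, 14 moved the same way in both origins. Bnip3, a mitophagy receptor induced in low oxygen, went from 75.64 and 130.4 to 3161 and 3655 in satellite cells and from 293.5 and 260.6 to 472.4 and 571.7 in teratoma-derived cells (interaction -4.13, SE 0.377, adjusted p = 0.000243). Ndrg1, another hypoxia gene, fell from 9347 and 12770 to 77 and 119.9 in satellite cells (interaction 5.4).

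Genes that fell in satellite cells only included Mpp7, a scaffold protein of cell polarity, which was at 2054 and 1810 in SF and 85.3 and 56.76 in SE against 159.5 to 212.7 in the teratoma-derived libraries (interaction 4.61, SE 0.385, adjusted p = 0.000169). Apobec1, an RNA-editing enzyme, was near 200 in every library but the 2 of SE, with 171.2 to 264 against 10.57 and 12.82. Bmp4, a bone morphogenetic protein, went from 1080 and 1476 to 29.44 and 8.239 in satellite cells and from 1069 and 1523 to 696.1 and 787.8 in teratoma-derived cells (interaction 5.23, SE 0.587, adjusted p = 0.000679). For Mpp7 the SF libraries were apart from the rest, and for Apobec1 and Bmp4 the SE libraries were. Letm2 and Gabre had interactions of 4.07 and 4.06 with SF high. Cd36, a fatty acid transporter, went from 802.9 and 1264 to 9.058 and 76.89 (interaction 5.67), and it is also made by endothelial cells, whose marker sum fell from 6760 and 8920 in SF to 172 and 189 in SE. The part of those cells was not tested. The transcript 1700112J16Rik (834.4 and 142.2 in SF) lost its call in 3 of 13 alternative analyses.

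The satellite cell quiescence list held 3 genes of the same group. Of 23 tested, 5 had an interaction call (21.7%, beside 14.3% of all tested genes), 3 higher and 2 lower. Of the 23, 16 fell in teratoma-derived cells and 20 in satellite cells (median log2 change -1.76 and -2.48). Spry1, an inhibitor of growth factor signalling, Sdc4, a heparan sulfate proteoglycan, and the noncoding RNA Meg3 fell in satellite cells only. The interaction of Sdc4 (1.63, from 1.33 to 2.02 in the alternatives) lost its call without TF replicate 1 and without TE replicate 2. Meg3 was at 1638 to 2150 in the teratoma-derived libraries, 10850 and 12270 in SF and 1199 and 2570 in SE (interaction 2.55, SE 0.457, adjusted p = 0.00605). The SF libraries alone were high.

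Of 52 tested sarcomere genes, 34 rose and 3 fell in teratoma-derived cells, and 41 rose and 2 fell in satellite cells. Of the 52, 25 had an interaction call (48.1%), all lower, and 21 of these moved the same way in both origins. Their median log2 change was 2.53 in teratoma-derived and 4.28 in satellite cells. Embryonic myosin heavy chain (Myh3) went from 3951 and 1828 in TF to 67820 and 71470 in TE, and from 43.06 and 2.155 in SF to 71830 and 135700 in SE (interaction -7.59, SE 1.02, adjusted p = 0.00159). The expanded groups lay close and the fresh groups apart. Myh1, an adult fast myosin, did not follow: it was at 1054 to 2095 in the teratoma-derived libraries and went from 451.5 and 338.4 to 31050 and 68260 in satellite cells (interaction -6.54, SE 0.576, adjusted p = 0.000214). Neuromuscular genes had 6 calls among 13 (46.2%, beside 14.3% of all tested genes), 5 of them lower. The receptor subunit Chrna1 went from 871.2 and 1044 to 7151 and 7430 and from 495.7 and 481.7 to 16080 and 13950. Of the 42 listed promoters of the sarcomere list, 38.1% held CAGCTG, beside 16.1% of all promoters.

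Of 41 tested genes of collagens and fibrillar matrix, 37 fell and 2 rose in teratoma-derived cells, and 27 fell and 4 rose in satellite cells. Of the 41, 30 had an interaction call (73.2%), 28 lower and 2 higher. The median log2 change was -4.34 in teratoma-derived and -1.74 in satellite cells. Col1a1, the main chain of fibrillar collagen, went from 217200 and 221300 in TF to 282.6 and 130.5 in TE, and from 16080 and 30750 in SF to 3221 and 8089 in SE (interaction -8, SE 0.78, adjusted p = 0.000353). TE thus moved from the highest to the lowest side. Col15a1 went from 50610 and 61170 to 121.1 and 227.7 and from 4676 and 7931 to 449.1 and 1195. Fn1 and Loxl3 moved in opposite directions, Fn1 from 42510 and 46780 to 17990 and 18240 and from 6661 and 8221 to 21260 and 13700. Of the 10 fibro-adipogenic markers, whose sums are given above, 4 had a lower interaction call, and Ly6c1, Dpt, Smoc2 and Clec3b were at 0 in TE and Clec3b and Dpp4 in SE. Their part in the fall of the collagens was not tested. Cartilage and tendon markers (8 genes) moved likewise, 7690 to 11300 in TF, 1360 to 1500 in TE, 5140 to 5840 in SF and 1710 to 2620 in SE.

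Imprinted genes, expressed from 1 parental allele and many of them regulators of growth, split in both directions. Of 30 tested, 14 had an interaction call (46.7%), 5 higher and 9 lower. H19, Mest, Plagl1 and Zim1 fell in teratoma-derived cells and rose in satellite cells. Plagl1, a zinc finger factor, went from 2472 and 1728 to 25.84 and 23.27 and from 1578 and 1340 to 7383 and 3864 (interaction -8.36, SE 0.499, adjusted p = 3.57e-05). Zim1 went from 943.9 and 1026 to 35.53 and 40.72 and from 915.8 and 1089 to 2042 and 2404. The fresh groups of Zim1 overlapped, so that its difference appeared with expansion alone. Dlk1, a transmembrane ligand, fell from 7721 and 7359 to 98.52 and 152.1 in teratoma-derived cells and was at 112.9 to 239.3 in satellite libraries. Meg3, Rian, Rtl1 and Mirg, of the same imprinted cluster as Dlk1, fell in satellite cells only, as did Airn. The growth factor Igf2 was high in TF (83960 and 94630) and TE (137600 and 138900) and rose in satellite cells from 1871 and 2018 to 17760 and 51070 (interaction -3.51, SE 0.591, adjusted p = 0.0046). Without TE replicate 1 the higher calls numbered 2.

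In the IGF axis, 9 of 13 tested genes had a call (69.2%, beside 14.3% of all tested genes), 7 lower and 2 higher. The binding proteins Igfbp7, Igfbp4, Igfbp5 and Igfbp6 moved the same way in both origins by different amounts. Igfbp7 went from 8010 and 7964 to 288.3 and 221.9 and from 2367 and 3524 to 628.8 and 903.5 (interaction -3.02). Igfbp3 went from 266.5 and 351.3 to 1810 and 2890 in satellite cells and was at 4133 to 5805 in the teratoma-derived libraries (interaction -3.37). Leaving out either TE replicate lowered the 7 calls to 4.

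The signalling pathways differed in their share of calls. The BMP pathway had 15 calls among 32, 12 lower and 3 higher (46.9%, beside 14.3% of all tested genes), and Id2, Id1 and Bmpr1b were lower while Bmp4 was higher. Id2, a target of BMP signals, was at 904.9 and 522.4 in TF, 69.45 and 36.56 in TE, 599.3 and 621.8 in SF and 1972 and 1105 in SE. The fresh groups overlapped and the expanded groups did not. The count of 12 was 6 without TE replicate 2. The Wnt pathway had 15 calls among 43 (34.9%), 12 of them lower. The receptor Fzd4 rose by 0.92 in teratoma-derived cells and fell by 2.06 in satellite cells. The co-receptor Lrp5 did the reverse (-0.66 and 0.73). TGF-beta and myostatin genes had 8 calls among 25 (32%), all lower, led by the latent binding proteins Ltbp2 (-3.48) and Ltbp3 (-2.79). Fewer of them were called without TE replicate 1. Guidance receptors and ligands had 14 calls among 55 (25.5%). The Notch pathway had 3 among 21 (14.3%), the same share as all tested genes. FGF receptors and ligands had 2 among 19, a share (10.5%) below that of all tested genes.

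Immediate early genes, the first to respond to stimulation and to cell isolation, were lower after expansion. Of 28 tested, 27 fell in teratoma-derived cells and 28 in satellite cells, and 9 (32.1%) had an interaction call, 7 higher and 2 lower, all with the same direction in each origin. Atf3 went from 4122 and 3947 to 727.6 and 531.8 in teratoma-derived cells and from 6341 and 7185 to 42.27 and 151 in satellite cells (interaction 3.46, SE 0.612, adjusted p = 0.00574). Myc went from 2311 and 2695 to 968.2 and 880 and from 12770 and 17050 to 846.2 and 549.2. The fresh cells were high in both origins. Interferon response genes (7 of 42 called), heat shock chaperones (3 of 21) and MHC class I genes (4 of 18) had shares of 16.7%, 14.3% and 22.2%, near that of all tested genes or little above it. The medians of the interferon list were -3.55 and -3.53. The remaining lists are given by their called members and the share this makes, to be read beside the 14.3% of all tested genes. Of p53 targets 10 of 22 (45.5%) had a call, 5 in each direction. Of antioxidant genes 9 of 22 (40.9%) and of matrix proteases 9 of 25 (36%) had one, of which 6 and 8 were lower. Of fatty acid genes 9 of 30 (30%) had one, 7 of them lower, but only 1 lower call was left without TF replicate 2, either TE replicate or SF replicate 1. The shares were 27.3% for excitation-contraction genes (6 of 22), 25% for ERK feedback genes (4 of 16), 22.7% for fusion genes (5 of 22), 22.6% for chemokine genes (7 of 31), 21.4% for fetal growth genes (3 of 14) and 15.6% for integrins and laminins (5 of 32). Of the 4 nuclear factor I genes, Nfib fell in both origins, from 7997 and 8339 to 3279 and 2952 and from 6574 and 7986 to 172.9 and 206.9 (interaction 3.87, SE 0.277, adjusted p = 7.71e-05), and Nfic moved in opposite directions (interaction -1.95).

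**Figure D4:**
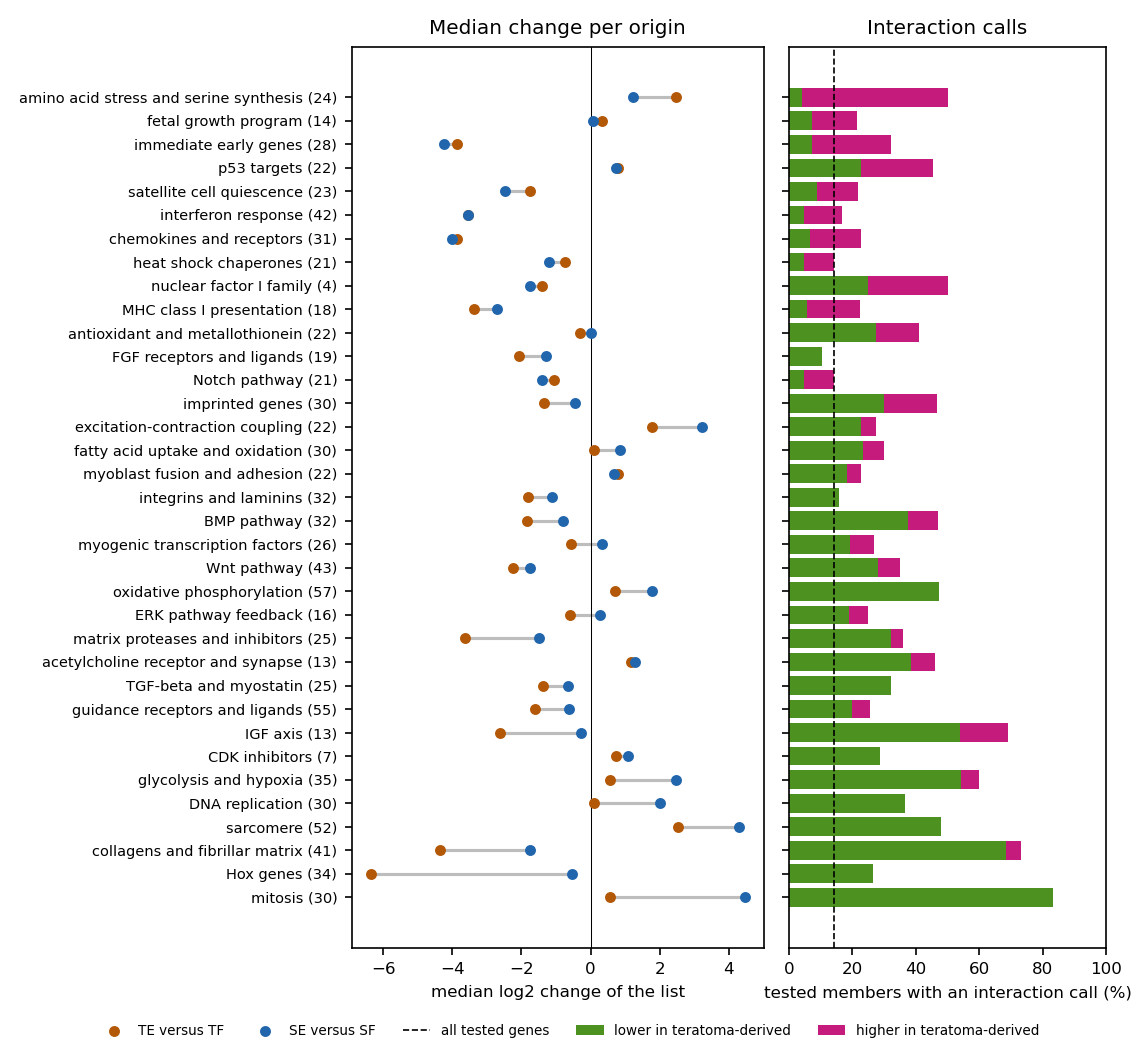
For each of 35 gene lists (tested genes in parentheses), the left panel plots the median log2 change in teratoma-derived (brown) and satellite cells (blue), and the right panel the percent of tested members with an interaction call, split by direction, beside the 14.3% of all tested genes (dashed line). Mitosis has the highest share (83.3%), and the widest gap between the medians is that of Hox genes.

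The transcription factors of the myogenic lineage responded unequally. Pax7 fell in both origins, from 3180 and 5102 to 1621 and 1338 in teratoma-derived cells and from 3696 and 4329 to 1840 and 1252 in satellite cells. Its interaction was -0.11 (95% interval -0.96 to 0.74, adjusted p = 0.929). Any value inside that interval was compatible with these libraries, so the absent call does not show equal responses. Myf5 fell in both as well, and its interval was -0.73 to 1.8. Myod1, the factor of activated myoblasts, rose in teratoma-derived cells only, from 661.1 and 965.6 to 5204 and 5194, beside 6181 and 8351 in SF and 11080 and 11420 in SE (interaction 2.05, SE 0.328, adjusted p = 0.00359). Myog, which marks entry into differentiation, went from 1377 and 1505 to 12050 and 12760 and from 8.146 and 14.01 to 4214 and 14410 (interaction -6.58, SE 0.773, adjusted p = 0.000832). For Myod1 the TF libraries were the lowest, and for Myog the SF libraries. Lbx1 and Six2 fell in teratoma-derived cells only and Meox1 in satellite cells only. The interaction of Six2 lost its call in 2 of 13 alternative analyses, and that of Meox1 in 3 of 13. The sort markers Itga7 (0.21, interval -0.64 to 1.06) and Vcam1 (-0.99, interval -1.84 to -0.13, adjusted p = 0.119) had no interaction call. Vcam1 gained a lower call without the filter on low counts and without SE replicate 2. Its estimate lay between -1.33 and -0.54 in the alternatives.

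Some genes were at or below 3 counts in both libraries of exactly 1 group, while every other group had a mean of at least 100 normalized counts. Counting only those with an interaction call, there were 7 such genes for TE, 10 for SF, 2 for SE and 0 for TF. H19, an imprinted noncoding RNA, was at 0 in both TE libraries, at 4916 and 1349 in TF, 599.3 and 463.4 in SF and 133000 and 299900 in SE. Against a floor of 3 counts per library, the mean of H19 in TF was at least 1275-fold higher than in TE. Rgs5, a regulator of G-protein signals that pericytes also express, was at 1900 and 1465 in TF, 0 in TE and 995.7 and 1050 in SE. Its mean was highest in SF, at 4870, so its level was also lower in SE than in SF. Rgs4 and the glutamate receptor Grik3 were likewise at or below 3 counts in both TE libraries. In SE the 2 genes were Mycn, a transcription factor of proliferating progenitors, at 106.4 and 112.4 in TF, 124.4 and 187.8 in TE, 121 and 180 in SF and 0 in both SE libraries, and Kazn, at 395.6 and 618.5 in SF. Mycn was at least 59.9-fold higher in SF than in SE. The 10 genes of SF included the histones Hist1h2ah, Hist1h2bk, Hist1h3b and Hist1h4b, and Entpd4b, whose reads cannot be told from those of its near-identical paralog.

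**Figure D5:**
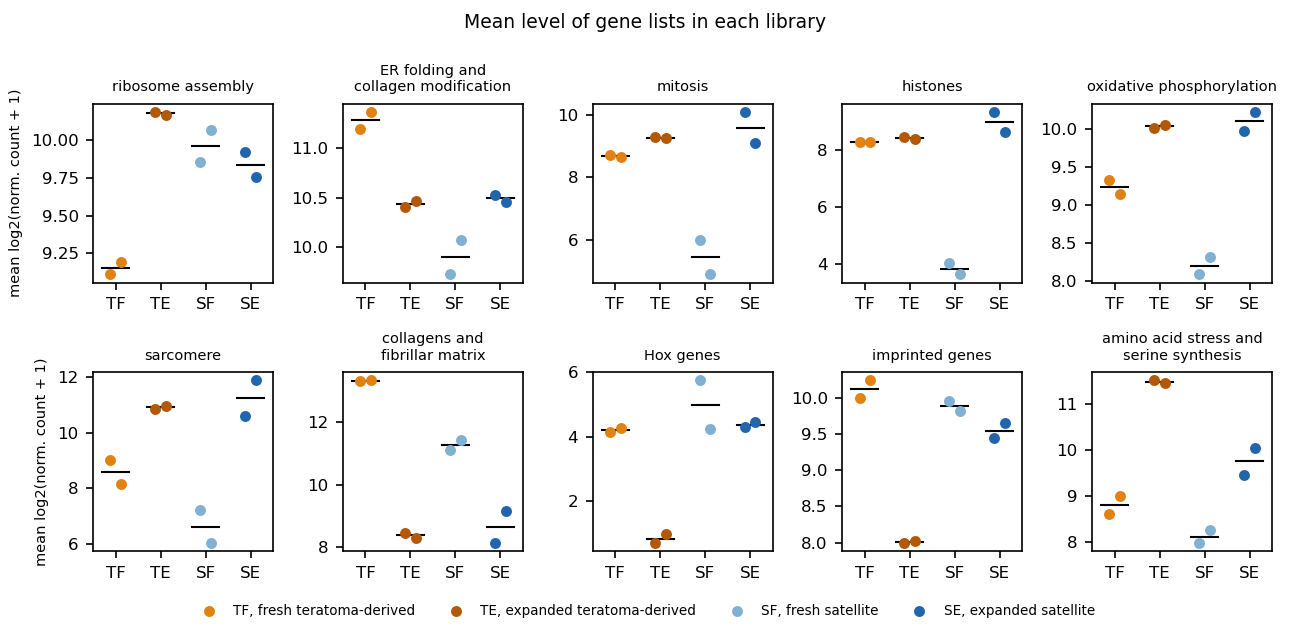
Mean level of the tested genes of 10 lists, as log2 of the normalized count plus 1, in the 2 libraries of each group, with the group mean as a black bar. Ribosome assembly is lowest in TF and the ER list highest in TF, mitosis, histones and oxidative phosphorylation are lowest in SF, and Hox and imprinted genes are lowest in TE.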

How the data were processed

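RNA was measured in 8 libraries of 4 groups (TF, TE, SF and SE, 2 each), made with a stranded total RNA kit. The authors deposited estimated counts per gene symbol, made with kallisto 0.44.0, and the submitters' processing notes name GRCm38 (mm10). The annotation and counting settings are not given in the sources used here. Groups and replicates followed the labels.

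The estimated counts were rounded, genes with low counts were removed with filterByExpr, and libraries were scaled by TMM. One model with a mean per group was fitted over all 8 libraries with edgeR 4.0.16 (quasi-likelihood test, R 4.3.3), and the interaction and the changes within each origin were contrasts of it. A call needed a Benjamini-Hochberg adjusted p below 0.05 over all tested genes and a fold change above 1.25 (0.32 on the log2 scale). Normalized counts are counts on the TMM scale. Intervals cover 95%. A group was at the floor when no library exceeded 3 counts.

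The question, the members and the gene lists were chosen with earlier results of these data known. Genes were named only where their mean over the libraries reached 50 on the TMM scale. They were the 10 with the largest smaller change in each opposite group, the 6 with the largest interaction in each group of 1 origin (other origin below 1.25-fold), up to 5 per group with exactly 1 group at the floor, up to 4 called genes per list and any that a count of 5 or fewer refers to, and 6 identity genes. Members of the histone, ribosome assembly, ER and chromosome Y lists, and further pathway genes named outside this rule (such as Atf4, Asns, Fn1, Id1, Fzd4, Lrp5 and the Mcm genes), were chosen after their values were seen. Alternatives were median-ratio size factors, no filter, DESeq2 1.42.0, a test against 1.25-fold (glmTreat), a replicate block, and leaving out each library. Promoters came from RefSeq (GRCm38.p6). Some genes that the naming rule selects are not reported here.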

Additional observations from a re-analysis of the deposited data

Results flagged for a closer look

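The response to expansion differed between the 2 origins, by the interaction test itself, in 826 genes that were higher and 1691 that were lower in teratoma-derived cells. The named genes with opposite responses are those listed here by their log2 interaction. Higher in teratoma-derived cells were Avil (7.21), Morf4l1-ps1 (5.45), Vgll2 (7.09), Mir17hg (3.92), Dpysl5 (5.48), Trp53rkb (3.52), Pcdhga8 (3.36), Snhg17 (3.27), Baz1a (3.01) and Ptx3 (7.92). Lower were Igfbp2 (-10.54), Mest (-9.57), Car8 (-7.1), Aqp5 (-7.97), Gpr37 (-7.56), Laptm5 (-7.3), Car3 (-8.51), Lrrn2 (-6.25), Ptgis (-5.71) and Tmem158 (-5.84). Groups of 2 libraries are too small for a test of single outlying libraries.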

How the results depend on the processing

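With each library left out in turn, interaction calls ranged from 457 to 1074 higher and from 1010 to 1922 lower in teratoma-derived cells, and genes that rose in teratoma-derived cells from 811 to 2116. The opposite groups ranged from 14 to 88 (up in teratoma-derived cells) and from 80 to 193 (down). Genes called in teratoma-derived cells only ranged from 55 to 181 up and from 207 to 416 down, and in satellite cells only from 499 to 868 up and from 278 to 463 down. Each of these lowest counts came without a TE replicate. Without the filter on low counts, 1284 interaction calls were higher. DESeq2 gave 1544 higher calls, 112 genes opposite with a rise in teratoma-derived cells, 262 up in teratoma-derived cells only and 785 down in satellite cells only. The test against the fold threshold (glmTreat) left 29 genes opposite with a rise in teratoma-derived cells. With the other origin held below that threshold, the groups of 1 origin held 73, 98, 358 and 181 genes. The cause of these moves was not tested. Fewer libraries entered only the fits that left a library out. The replicate block gave 758 higher and 1569 lower calls. Same-numbered libraries did not deviate together over the tested genes (correlations -0.03 to 0.08). The labels do not say whether they share more than a number, and a correlation over all tested genes cannot settle it. Of the 2517 genes, 1400 to 2496 kept an interaction call. No named gene with an interaction call changed sign. With 2 libraries a group, an absent call does not show equal responses.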
